A study of Mus musculus with 55 samples.

Results

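Antisense transcripts are RNAs read from the strand opposite another gene. The liver RNA tables examined here, which hold only genes that the study selected as changed, list 4113 distinct genes, and 323 of them carry the biotype antisense. All 323 were taken, with no further selection: 307 are among the 3900 genes listed for TCPOBOP-treated Setd8-LKO livers against untreated wild type (WT) livers, 56 are among the 719 genes listed for TCPOBOP-treated WT livers against the same untreated livers, and 40 are in both tables. Each was set beside every listed protein-coding gene that overlaps it on the other strand, called its partner below.

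An antisense gene can start head to head with its partner and share a bidirectional promoter, run into the partner's end tail to tail, or lie inside one of its introns. Some antisense RNAs, of which Airn at the imprinted Igf2r locus is the textbook case, silence the genes they overlap, many others are transcribed together with their neighbour with no known role, and most of the names below have no assigned function. Telling an antisense RNA from its partner in short-read data depends on the sequencing library keeping the strand of the RNA. The methods name a NEBNext Ultra II RNA kit, and neither the strand setting nor how genes were counted is given in the sources used here, so reads from bases that both genes cover cannot be told apart.

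The RNA came from livers of male C57Bl6 mice 45 to 50 days old. It comprised 5 libraries of untreated WT, 5 of WT + TCPOBOP and 4 of Setd8-LKO + TCPOBOP, where TCPOBOP, an agonist of the nuclear receptor CAR that drives hepatocyte proliferation, was injected at 3 mg/kg 24 h earlier. Setd8-LKO denotes Setd8lox/lox/AlbCre mice, in which Cre made from the albumin promoter deletes a floxed part of Setd8 (gene Kmt5a, the H4K20 monomethyltransferase) in hepatocytes. Other liver cells keep the gene, genotype and treatment change together in the first comparison, and the controls are labelled untreated although the methods describe mock injection. Kmt5a itself had normalized counts of 613, 567, 761, 563 and 715 in untreated WT and of 1341, 1465, 1338 and 1313 in the libraries labelled Setd8-LKO, a log2 difference of 1.08 ± 0.14 (SE) that was 0.27 and not called with DESeq2 size factors from the listed genes. The libraries labelled Setd8-LKO thus held more Kmt5a reads than the controls, in a count that covers the whole gene and not the floxed part alone, and groups are named by their labels throughout.

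Counts of the 307 transcripts in the Setd8-LKO table ranged from 5.56 to 69868 normalized counts on average over the 9 libraries, with a median of 58.8 against 137 for the listed protein-coding genes. Of these, 291 passed the filter on low counts, and 269 passed an adjusted p of 0.05 with at least a 2-fold change (edgeR quasi-likelihood test, Benjamini-Hochberg adjustment over 18512 genes), 132 higher and 137 lower. That is 92.4% of those tested, beside 92.7% of all listed genes (55.2% higher and 37.5% lower), and because listing used these same libraries the share describes the table and says nothing of antisense genes. The median absolute log2 fold change was 1.60, beside 1.64 over all listed genes. The groups' normalized counts did not overlap for 253 of 307, or 82.4%, beside 84.8% of all listed genes. With size factors taken from the listed genes by DESeq2 the median log2 fold change of all listed genes moved by -0.82 and 51 antisense transcripts passed as higher against 148 as lower, whereas TMM factors from the same genes moved it by -0.013 and gave 138 and 140. Both kinds of factor take most genes as unchanged, while these genes were listed as changed, so neither shift shows which scaling is right. The column headers name a run A and a run B, without saying what a run was. Within each run, 300 of 307 kept the pooled sign. Run A held 1 Setd8-LKO and 3 untreated libraries, and run B held 3 and 2.

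Depth can only be seen in part, since the tables hold no other genes. Listed genes summed to between 5734065 and 12780869 raw counts per library in the Setd8-LKO table, and antisense transcripts took 2.55% to 3.78% of them. In the WT + TCPOBOP table they took 1.04% to 2.30%. Liver cell markers moved with the groups, and a change in the number of cells of a type and a change in RNA per cell cannot be told apart in bulk tissue. Of 7 hepatocyte markers 5 were listed and all 5 fell (summed normalized counts of 1158323 to 1844269 in untreated WT and 458528 to 650080 in Setd8-LKO + TCPOBOP), while 4 of 5 listed cholangiocyte markers rose (422 to 686 and 1617 to 7426) and all 4 listed of 7 stellate cell and fibroblast markers rose (2149 to 3317 and 5583 to 13103). Among other cell markers, 1 of 6 Kupffer cell and macrophage genes was listed and rose (Marco), neither of the 2 neutrophil genes listed of 4 passed the test, and none of 5 endothelial genes was listed. With DESeq2 size factors from the listed genes Sox9 (0.46), Dcn (0.35) and Marco (0.58) lost their calls. The part of these cell types in the differences below was not tested.

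Antisense transcripts and their listed partners moved together. In the Setd8-LKO table, 224 of the 307 had a listed partner and formed 229 pairs with 220 protein-coding genes. In 228 of the 229 pairs both genes moved the same way, up in 111 and down in 117. Only coding genes listed as changed could form a pair. Another 73 transcripts overlap an annotated coding gene that was not listed and are outside this count. The sizes matched closely as well: among 217 pairs with both genes fitted, the median absolute difference between the log2 fold changes of the transcript and its partner was 0.17, with 134 pairs within 0.25 and 15 beyond 1. For comparison, the nearest listed coding gene on the other strand that did not overlap, at a median distance of 309247 bp, moved the same way as the transcript for 183 of 307, or 59.6%, with a median difference of 2.02. Moving together was not limited to antisense genes, since all 103 pairs of listed coding genes that overlap on opposite strands also shared their direction, with a median difference of 0.35. The WT + TCPOBOP table gave the same picture, with 43 of 43 pairs moving the same way, up in 27 and down in 16, a median difference of 0.09 over 40 fitted pairs, and 30 of 56 for the nearest gene that did not overlap.

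**Figure D1:**
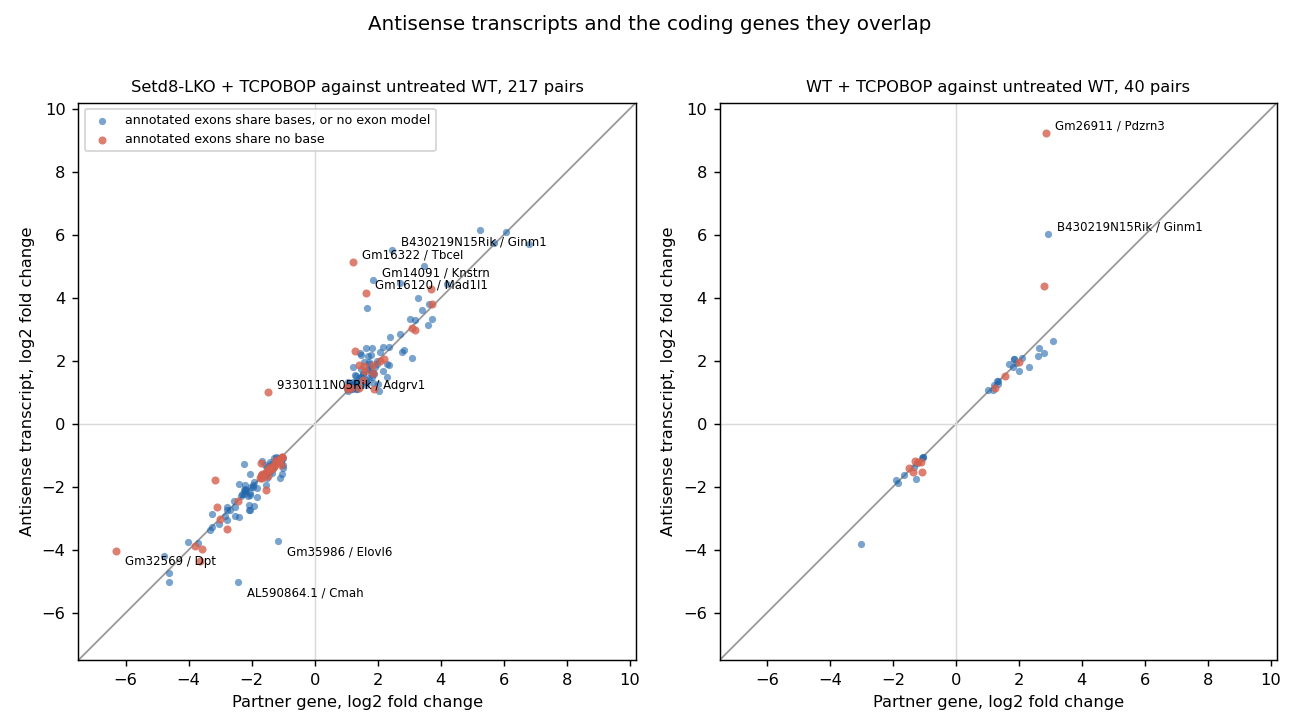
Each point is a pair of overlapping genes on opposite strands, with the fitted log2 fold change of the coding partner on the horizontal axis and that of the antisense transcript on the vertical axis; the grey diagonal marks equal change, and red points are pairs whose annotated exons share no base. Most points lie on the diagonal, 217 pairs on the left and 40 on the right; the named pairs depart from it, and Gm26911 had no read in untreated WT, so its height depends on the prior count of the fit.

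How many reads an antisense transcript had relative to its partner followed how much of the partner it covered. Where under 10% of the partner's exon bases lay inside the antisense gene body, introns included, the transcript's raw count, summed over the untreated WT libraries, was 6.51% of the partner's at the median (68 pairs). The median was 17.4% for 10 to 25% covered (49 pairs), 42.6% for 25 to 50% (49 pairs), 69.8% for 50 to 75% (28 pairs) and 104% for 75 to 100% (35 pairs). Spearman's rho over the 229 pairs was 0.74, given as a description because pairs share libraries. It was 0.65 over the 56 pairs whose annotated exons share no base. In those pairs any partner exon bases inside the antisense body lie in its introns. How reads there were counted is not known, and the part of shared reads was not tested. In Setd8-LKO + TCPOBOP rho was 0.74, and over the 43 pairs of the WT + TCPOBOP table it was 0.88 in untreated WT. These percentages, here and below, compare raw counts summed over the libraries of a group and are not corrected for gene length, so they can differ slightly from those of normalized counts.

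In 15 pairs the partner lies wholly inside the antisense gene, and the antisense count in untreated WT ranged from 70.8% to 1275% of the partner's, with a median of 120%. Of the 7 whose partner averaged at least 100 normalized counts, 4 lay between 90 and 110%, and the other 3, formed by 0610031O16Rik and 4732471J01Rik, stood at 138% to 418%. The 4 near 100% were as follows. BC028777 (ENSMUSG00000085185, mm10 chr17:24208861-24221730, plus strand) spans all of Tedc2, a tubulin complex gene at chr17:24215054-24220851 on the minus strand. BC028777 had normalized counts of 1083, 1700, 1636, 2254 and 2094 in untreated WT, where Tedc2 had 1133, 1744, 1575, 2159 and 2128. In Setd8-LKO + TCPOBOP the antisense gene had 250, 192, 337 and 273 and Tedc2 had 233, 204, 326 and 259. The libraries kept the same order in both genes of the pair within the untreated group, and the antisense count was 100% of the partner's in untreated WT and 103% in Setd8-LKO + TCPOBOP. The percentages were also close to 100 for Gm14546 and Akr1b3, an aldose reductase (104% and 99.0%), for 9330175M20Rik and Cavin2, a caveola coat gene (98.5% and 96.7%), and for 9430060I03Rik and the calpain gene Capn10 (97.0% and 96.7%).

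**Figure D2:**
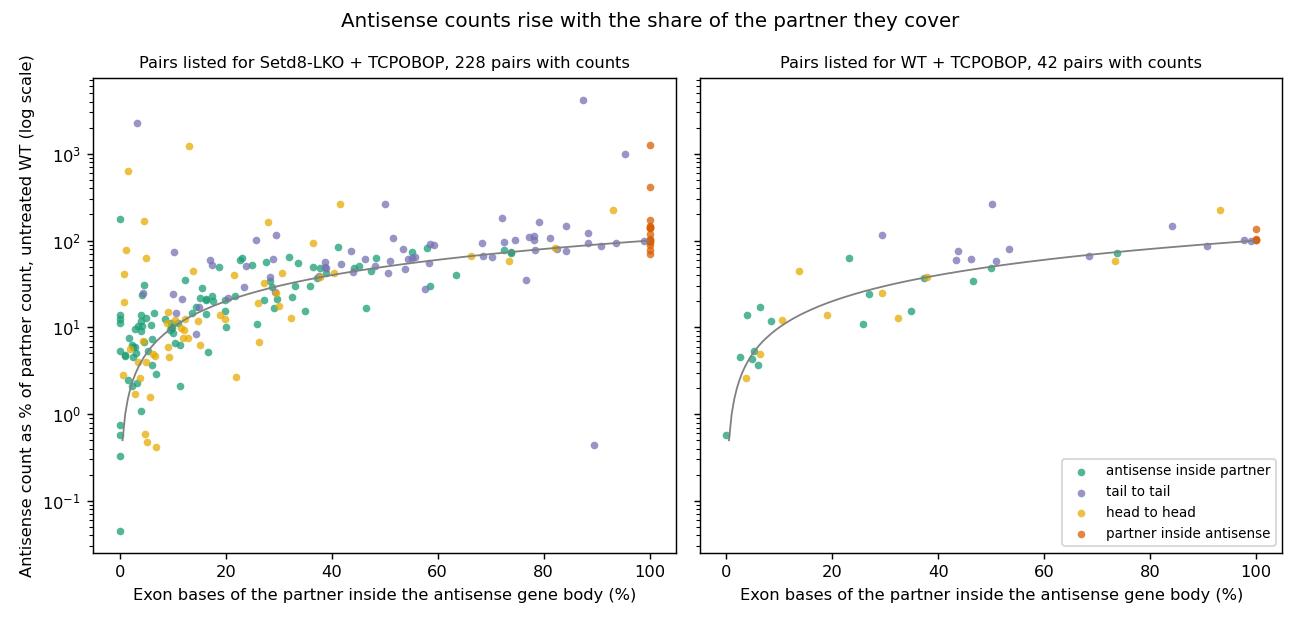
Percentage of the partner's exon bases that lie inside the antisense gene body (horizontal axis) against the antisense transcript's raw count summed over the untreated WT libraries as a percentage of its partner's (vertical axis, log scale), with 1 point per pair; the grey line marks equal percentages. In both panels the points climb along the line, from a median of 6.51% below 10% covered to 104% above 75% in the Setd8-LKO table.

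Partners that fell included genes of hepatocyte metabolism. The genes described here were grouped by role after their values had been seen, so the groups are a guide to the pairs and not a test. One-carbon metabolism passes methyl groups between betaine, glycine, folate and methionine. It was grouped with the reductase gene Qdpr, which lies outside those steps, into 7 pairs, and in all 7 both genes fell. Gm15622 lies inside Bhmt, the betaine-homocysteine methyltransferase, at chr13:93625382-93628633 on the plus strand. Gm15622 had 7219, 8586, 3790, 6865 and 4658 normalized counts in untreated WT and 841, 605, 333 and 803 in Setd8-LKO + TCPOBOP, a log2 fold change of -3.27 ± 0.35 (SE). Bhmt had 47816, 56735, 29268, 52919 and 36225 and then 5924, 3897, 2411 and 6415, a log2 fold change of -3.26 ± 0.35. In either gene every treated library lay below every control, and the summed raw antisense count was 13.9% of the Bhmt count in both groups. The other 6 pairs fell by less, with log2 fold changes of the antisense transcript from -2.10 for Gm15756, inside the folate enzyme gene Aldh1l1 (-2.17), to -1.04 for Gm34868, inside Mthfd1 (-1.04). Sardhos fell by 1.94 on the log2 scale and its partner Sardh, sarcosine dehydrogenase, by 1.96. AW495222 and Dmgdh, dimethylglycine dehydrogenase, changed by -1.40 and -1.34, and Gm42413 fell with the dihydropteridine reductase gene Qdpr, which changed by -2.03. Gm45609 and Ahcy, which clears S-adenosylhomocysteine, changed by -1.43 and -1.42. Mthfd1 missed the 2-fold limit without Setd8-LKO + TCPOBOP replicate 1 (-0.99), while the sign held.

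Antisense transcripts over 3 plasma protein genes fell with them. Not every such pair fell, since Gm10680 rose by 5.75 on the log2 scale together with the apolipoprotein gene Apoa4, as described below. B430119L08Rik, the most abundant of the 307, inside the alpha-1-antitrypsin gene Serpina1c, had 115419, 147160, 94268, 91919 and 90906 normalized counts in untreated WT and 9422, 15003, 35451 and 29268 in Setd8-LKO + TCPOBOP. The fall was -2.28 ± 0.39 on the log2 scale, beside -2.13 ± 0.32 for Serpina1c, whose reads can be shared with near-identical Serpina1 copies. Gm10069, tail to tail with the protease inhibitor gene Pzp, fell by 1.55 beside 1.54, and Gm13449, inside the complement component 5 gene Hc, by 1.29 beside 1.28. Hepatocyte markers fell in these libraries as well, by values given above.

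Other liver enzyme genes followed. Gm15883 inside Cyp2f2, a cytochrome P450, had 14006, 13510, 11952, 10590 and 11178 normalized counts in untreated WT and 797, 609, 1649 and 1726 in Setd8-LKO + TCPOBOP. Its log2 fold change was -3.36 ± 0.34, beside -3.32 ± 0.34 for Cyp2f2. 4930570N18Rik, tail to tail with the glucocorticoid-activating gene Hsd11b1, changed by -3.02 ± 0.25 beside -3.01 ± 0.24 with no annotated exon base in common, and its count stayed at 52.6% and 52.0% of the partner's. Gm28836 covers most of the exons of the glutathione transferase gene Gsta3 and changed by -1.05 beside -1.05. Without untreated WT replicate 2 both were below the 2-fold limit at -0.92, and without Setd8-LKO + TCPOBOP replicate 1 at -0.91.

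Transcription factors and growth signalling genes had partners of either direction. Gm45091 starts head to head with Cebpa, which encodes a factor that maintains hepatocyte gene expression, and the pair changed by -2.09 ± 0.35 and -2.24 ± 0.28. Igf1os and the growth factor gene Igf1 changed by -1.67 ± 0.21 and -1.49 ± 0.17. Egfros lies within an intron of Egfr, the epidermal growth factor receptor gene, and had 17, 16, 139, 89 and 51 normalized counts in untreated WT and 3, 2, 2 and 6 in Setd8-LKO + TCPOBOP. Its untreated libraries differed more from each other than those of Egfr, which had 24441, 19116, 16644, 24273 and 12036, and the pair changed by -4.34 ± 0.79 and -3.64 ± 0.37. For Egfros the untreated libraries of run B had 17 and 16 and those of run A 51 to 139. The Setd8-LKO + TCPOBOP libraries of run B had 3, 2 and 2 and that of run A 6. The pooled change thus compares groups with unequal shares of the runs. By contrast, Junos, head to head with the AP-1 gene Jun, had 100, 79, 132, 108 and 79 counts and then 462, 517, 567 and 370. Junos rose by 2.27 ± 0.21 on the log2 scale while Jun rose by 2.77 ± 0.17. Gm11175 inside Jund rose by 1.09 and Jund by 1.04. Without Setd8-LKO + TCPOBOP replicate 3 that pair stood at 0.98 and 0.92, below the 2-fold limit, and with DESeq2 size factors from the listed genes at 0.32 and 0.27.

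Partners that rose included genes of extracellular matrix, of adhesion and blood vessel cells and of cell division. The basement membrane collagen genes Col4a1 and Col4a2 carry Gm15418 and Gm15419, whose counts rose by 1.69 and 1.47 beside 1.60 and 1.40. Gm48682 rose by 2.28 inside the nidogen gene Nid1 (2.07). Gm43109 rose by 1.75 head to head with the adhesion gene Vcam1 (1.46), and Gm47079 by 1.30 tail to tail with Icam1 (1.27). Gm16897, tail to tail with the progenitor and endothelial antigen gene Cd34, had 34, 15, 42, 36 and 52 normalized counts in untreated WT and 156, 160, 34 and 90 in Setd8-LKO + TCPOBOP, so its groups overlapped. It changed by 1.61 ± 0.45 with an adjusted p of 0.026 (edgeR), and the call was lost without Setd8-LKO + TCPOBOP replicate 1 (1.39) or 2 (1.37) and without untreated WT replicate 1 (1.59), 2 (1.42) or 4 (1.61). With DESeq2 size factors from the listed genes 10 of these 12 genes lost the call: Col4a1 (0.76), Col4a2 (0.56), Vcam1 (0.65), Icam1 (0.49), Cd34 (0.94) and their antisense transcripts (0.50 to 0.96), while Nid1 (1.20) and Gm48682 (1.39) kept it. With TMM factors all 12 kept it. The summed stellate cell and fibroblast markers were higher in the same libraries, as given above.

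Some of the partners that rose have roles in division and DNA replication. The transcripts over Kif22, Nek2 and Sass6 had few counts in untreated WT. Gm31749, inside the mitotic kinesin gene Kif22, had 3, 5, 8, 2 and 7 normalized counts in untreated WT and 78, 85, 99 and 69 in Setd8-LKO + TCPOBOP, a rise of 4.01 ± 0.34 beside 3.27 ± 0.32 for Kif22. Gm38037, head to head with the centrosomal kinase gene Nek2, had 4, 4, 2, 2 and 2 and then 30, 23, 43 and 23, a rise of 3.34 ± 0.34 beside 3.04 ± 0.28. Gm10143 and the flap endonuclease gene Fen1 rose by 1.38 and 1.63, and Gm16794 and the checkpoint kinase gene Atr by 1.44 and 1.72. With DESeq2 size factors from the listed genes these last 4 lost the call (Gm10143 0.54, Fen1 0.79, Gm16794 0.64, Atr 0.90), and Gm31749, Kif22, Gm38037 and Nek2 kept it at 2.27 or more. Gm42893, inside the centriole assembly gene Sass6, had 4 to 8 counts in untreated WT and 9 to 24 in Setd8-LKO + TCPOBOP and did not pass the filter.

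Whether the antisense count changed relative to the partner was tested over libraries. An exact two-sided permutation test of log2((antisense + 1)/(partner + 1)) over libraries, whose smallest possible p is 0.00794 with 4 and 5 libraries, gave 0 of 229 pairs past an adjusted p of 0.05. At an unadjusted p of 0.05 it gave 42 pairs, 19 of them at the smallest p. With 19 of 229 pairs at that limit the adjusted p could not go below 0.0957, so the count of 0 does not speak for unchanged ratios. limma on the same log ratios, an alternative chosen after the data were seen, gave 19 pairs past an adjusted p of 0.05, 9 with a higher and 10 with a lower ratio in Setd8-LKO + TCPOBOP.

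B430219N15Rik departed most clearly. It lies at chr10:7780185-7781357 on the plus strand inside Ginm1, a membrane glycoprotein gene, and holds only 5.20% of the exon bases of Ginm1. Its normalized counts were 58, 36, 25, 32 and 19 in untreated WT, 1283, 1600, 1832 and 1606 in Setd8-LKO + TCPOBOP and 2594, 1901, 1887, 2859 and 1982 in WT + TCPOBOP. Ginm1 had 730, 648, 531, 698 and 564, then 2880, 3378, 3995 and 3520, then 5361, 4537, 3997, 5632 and 4413. All treated libraries lay far above all untreated ones for both genes, but the antisense count went from 5.36% of the Ginm1 count to 45.9% in Setd8-LKO + TCPOBOP and 46.6% in WT + TCPOBOP. The log2 ratio rose by 3.14 ± 0.21 and by 3.16 ± 0.19 (limma, adjusted p = 5.37e-05 and 1.06e-06), and in the exact permutation test each comparison was at the smallest p.

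9330111N05Rik and Adgrv1 were the only pair in the Setd8-LKO table that moved in opposite directions. 9330111N05Rik had 1061, 1043, 1299, 1275 and 869 normalized counts in untreated WT and 2532, 2642, 1889 and 1820 in Setd8-LKO + TCPOBOP, while Adgrv1, an adhesion G protein-coupled receptor gene, had 68, 83, 32, 44 and 28 and then 27, 20, 11 and 14. The log2 fold changes were 1.00 ± 0.18 and -1.49 ± 0.40. With size factors from the listed genes 9330111N05Rik stood at 0.16 by DESeq2 and 0.99 by TMM and lost its call. Without Setd8-LKO + TCPOBOP replicate 1 or 2, or without untreated WT replicate 1, 2 or 5, the antisense change lay between 0.91 and 0.99 and below the 2-fold limit, and Adgrv1 lost its call without Setd8-LKO + TCPOBOP replicate 3 (-1.31) or 4 (-1.38) or untreated WT replicate 1 (-1.36). Gm16322, in an intron of the tubulin chaperone gene Tbcel, had 0, 0, 2, 0 and 1 counts and then 25, 26, 35 and 22, while Tbcel rose by 1.22 ± 0.17 (0.42 and no longer called with DESeq2 size factors). Gm14091 in Knstrn, a spindle gene, had 1, 1, 4, 0 and 8 counts and then 66, 48, 91 and 74, beside 1.85 ± 0.20 for Knstrn.

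Ratios that fell included Gm35986 and Elovl6. Elovl6, a fatty acid elongase gene, changed by -1.18 ± 0.22, and Gm35986 (ENSMUSG00000105837, chr3:129527467-129532388, minus strand), which starts 2 bp from a coding start and overlaps Elovl6 by 34 bp, had 41, 51, 45, 38 and 37 normalized counts in untreated WT and 1, 1, 8 and 3 in Setd8-LKO + TCPOBOP. It changed by -3.71 ± 0.50, and the log2 ratio by -2.64 ± 0.55 (limma, adjusted p = 0.0169). AL590864.1, head to head with Cmah, which encodes the CMP-sialic acid hydroxylase, had 638, 535, 1019, 797 and 730 counts and then 18, 16, 43 and 15. It changed by -5.01 ± 0.38 beside -2.43 ± 0.22 for Cmah, and the log2 ratio by -2.62 ± 0.22. Junos fell relative to Jun by 0.53 ± 0.11 on the log2 scale, and Gm27177 relative to Loxl2, a collagen cross-linking enzyme gene, by 1.01 ± 0.16, since Gm27177 rose by 1.03 and Loxl2 by 2.04. Gm27177 met the 2-fold limit only narrowly and lost its call without untreated WT replicate 3 (1.00) and with DESeq2 size factors from the listed genes (0.21).

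The promoter sequences of 5 members are printed below from RefSeq on GRCm38.p6, which is the sequence of mm10. Airn is shown because its role is known, Gm35986 because its count fell relative to that of its partner, and Acss2os, Gm16573 and 9530034E10Rik because they have no listed partner. RefSeq has a promoter entry for 125 of the 323 transcripts, and the starts of these 5 lie at most 2 bp from those in the deposited tables. Each runs 5′ to 3′ from 250 bases before to 50 after the start. Capitals mark letters found on either strand: TATAAA for the TATA box (held by 13.6% of 32851 promoters of this length), AGGTCA for a nuclear receptor motif (16.3%), GGGCGG for the GC box (35.7%) and CCAAT for the CCAAT box (37.4%).
Airn (chr17:12741061-12741360, plus strand): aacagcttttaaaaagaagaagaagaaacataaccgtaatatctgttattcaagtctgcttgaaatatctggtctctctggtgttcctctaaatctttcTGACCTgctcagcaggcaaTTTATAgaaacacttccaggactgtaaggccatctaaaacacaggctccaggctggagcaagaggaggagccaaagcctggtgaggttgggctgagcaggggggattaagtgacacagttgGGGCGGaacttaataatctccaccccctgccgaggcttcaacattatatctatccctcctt
Gm35986 (chr3:129532339-129532638, minus strand): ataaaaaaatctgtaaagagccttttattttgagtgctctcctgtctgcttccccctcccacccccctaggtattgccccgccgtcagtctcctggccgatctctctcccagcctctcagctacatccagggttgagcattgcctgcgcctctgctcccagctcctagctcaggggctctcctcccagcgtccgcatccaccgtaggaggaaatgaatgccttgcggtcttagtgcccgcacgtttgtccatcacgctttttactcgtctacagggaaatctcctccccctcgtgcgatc
Acss2os (chr2:155556881-155557180, minus strand): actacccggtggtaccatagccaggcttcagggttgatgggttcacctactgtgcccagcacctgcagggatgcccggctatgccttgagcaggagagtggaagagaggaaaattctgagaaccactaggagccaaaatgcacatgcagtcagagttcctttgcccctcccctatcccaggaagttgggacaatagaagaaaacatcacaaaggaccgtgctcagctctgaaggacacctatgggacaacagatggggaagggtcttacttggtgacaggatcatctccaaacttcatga
Gm16573 (chr14:56620464-56620763, minus strand): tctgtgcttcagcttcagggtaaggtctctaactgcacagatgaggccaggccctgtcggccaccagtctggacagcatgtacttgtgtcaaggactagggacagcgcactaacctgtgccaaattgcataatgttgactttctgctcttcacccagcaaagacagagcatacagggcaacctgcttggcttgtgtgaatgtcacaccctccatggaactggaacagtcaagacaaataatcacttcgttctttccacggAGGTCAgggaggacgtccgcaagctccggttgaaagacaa
9530034E10Rik (chr4:117974784-117975083, plus strand): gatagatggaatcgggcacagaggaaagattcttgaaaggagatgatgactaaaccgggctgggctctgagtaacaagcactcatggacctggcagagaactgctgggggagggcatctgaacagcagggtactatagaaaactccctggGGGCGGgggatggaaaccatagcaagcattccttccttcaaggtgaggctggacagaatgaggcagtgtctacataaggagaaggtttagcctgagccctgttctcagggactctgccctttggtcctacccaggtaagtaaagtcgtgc
Airn holds the TATA box and the nuclear receptor letters, both on the reverse strand, and the GC box, Gm16573 holds the nuclear receptor letters, 9530034E10Rik holds the GC box, and none of these occurs in the windows of Gm35986 and Acss2os.

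Airn is the member whose biology is best known: its transcription from the paternal chromosome silences Igf2r, which was not listed. It had 157, 183, 151, 146 and 140 normalized counts in untreated WT and 1007, 1114, 1132 and 676 in Setd8-LKO + TCPOBOP. Every treated library lay far above every control, the log2 fold change was 2.66 ± 0.18 and the adjusted p (edgeR) 3.6e-06. Its listed partner at the far end, the angiotensin receptor gene Mas1, had 6, 3, 3, 3 and 3 counts and then 47, 42, 7 and 38 and did not pass the filter. The Airn start carried an H3K27ac peak in the untreated WT list (fold enrichment 12.4) and in the Setd8-LKO list (26.6), and ATAC, CTCF and Smc3 peaks only in the latter (5.95, 10.9 and 39.5), with 1 list per condition and no test.

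In all, 83 transcripts of the Setd8-LKO table had no listed partner, although 73 of them overlap an annotated coding gene on the other strand. Of 76 tested, 64 passed as changed, 31 higher and 33 lower, beside 92.7% of all listed genes tested (55.2% higher and 37.5% lower). Listing used these same libraries, so the count describes the table and not transcripts without a partner. The 83 transcripts were scarcer than the rest, with a median of 28.2 normalized counts against 80.7. Their median absolute log2 fold change was 1.30 against 1.75. Acss2os, antisense to the acetyl-CoA synthetase gene Acss2, had 1272, 1566, 663, 762 and 1789 counts in untreated WT and 162, 205, 166 and 251 in Setd8-LKO + TCPOBOP, a change of -2.63 ± 0.32, while Acss2 was not listed. Gm16573, antisense to Parp4, had 260, 272, 710, 519 and 927 and then 75, 69, 65 and 52, a change of -3.04 ± 0.40. In both transcripts the groups were separate in spite of a wide spread among the controls. For Gm16573 that spread went with the run, with 260 and 272 in run B and 519 to 927 in run A. Most Setd8-LKO + TCPOBOP libraries are of run B. 9530034E10Rik, antisense to the sialyltransferase gene St3gal3, rose from 3, 5, 14, 21 and 12 to 142, 213, 342 and 120, by 4.17 ± 0.49. The most abundant of this kind, Gm49431, had no annotated coding gene opposite it and went from 7347, 6801, 3936, 5495 and 4152 to 1280, 1067, 1443 and 2555, a change of -1.81 ± 0.30. Gm17189, antisense to Ly6k, had 0, 1, 2, 0 and 0 counts in untreated WT and 70, 37, 15 and 43 in Setd8-LKO + TCPOBOP. Gm12909 fell by 3.12 ± 0.24, Gm38825 by 1.16 ± 0.21 (0.98 without untreated WT replicate 2), and 4930525G20Rik rose by 1.33 ± 0.13 (0.51 and no longer called with DESeq2 size factors from the listed genes).

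Of the 56 antisense transcripts in the WT + TCPOBOP table, 50 passed the filter and 42 passed as changed, 29 higher and 13 lower. This is 84.0% of those tested, beside 78.8% of all listed genes (58.2% higher and 20.6% lower). The normalized counts of the groups did not overlap for 46 of 56 (82.1%), beside 80.5% of all listed genes. Size factors from the listed genes moved the median log2 fold change of all of them by -1.17 (DESeq2) and -1.25 (TMM). With them 5 transcripts passed as higher and 20 as lower, so the balance of directions in this table depends on the scaling used. Such factors take most genes as unchanged, while these genes were listed as changed, so the shift does not show which scaling is right. All 56 kept the pooled sign within each run.

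Sterol synthesis genes and the transcripts over them were higher after TCPOBOP in WT, a call that depended on the authors' scaling. Gm48342 lies inside Hmgcs1, the HMG-CoA synthase gene, and had 1499, 1532, 899, 2956 and 1420 normalized counts in untreated WT and 4554, 3733, 5541, 7761 and 7520 in WT + TCPOBOP. Every treated library exceeded every control, and the pair rose by 1.81 ± 0.32 and 1.81 ± 0.31. 4930483K19Rik and the lanosterol synthase gene Lss rose by 1.38 ± 0.18 and 1.34 ± 0.19. With size factors from the listed genes all 4 lost the call, Gm48342 and Hmgcs1 at 0.67 each by DESeq2 and 0.57 each by TMM, and 4930483K19Rik and Lss at 0.21 and 0.18 by DESeq2 and 0.12 and 0.087 by TMM.

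Among transcripts that rose, Gm26911 had no read in any of the 5 untreated libraries and 135, 79, 68, 96 and 53 normalized counts in WT + TCPOBOP and 7, 18, 4 and 21 in Setd8-LKO + TCPOBOP. Against a floor of 3 reads over the untreated group it was at least 131-fold higher in WT + TCPOBOP. Pdzrn3, the ubiquitin ligase gene in which it lies, had 74, 59, 29, 73 and 9 and then 482, 405, 295, 328 and 270 in WT + TCPOBOP, a rise of 2.86 ± 0.47. Gm15318, tail to tail with the trefoil factor gene Tff1, rose by 2.42 ± 0.16 beside 2.63 ± 0.21. Gm16120 and Gm16121 both lie inside the spindle checkpoint gene Mad1l1, which rose by 2.78 ± 0.25, and rose by 4.37 ± 0.65 and 2.25 ± 0.23. Gm16120 averaged only 1.6 normalized counts in untreated WT and 38.6 in WT + TCPOBOP, so the size of its rise is uncertain. Without a listed partner, 2310043M15Rik rose by 2.11 ± 0.33 and 3110045C21Rik by 1.46 ± 0.23. With the same factors Pdzrn3 (1.70 by DESeq2 and 1.60 by TMM), 2310043M15Rik (0.92 and 0.85) and 3110045C21Rik (0.31 and 0.22) lost their calls.

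Transcripts that fell after TCPOBOP in WT included Hectd2os, tail to tail with the ubiquitin ligase gene Hectd2, which had 418, 611, 483, 167 and 553 normalized counts in untreated WT and 20, 36, 27, 26 and 47 in WT + TCPOBOP. The pair changed by -3.83 ± 0.38 and -3.02 ± 0.30. Gm48877 spans all of the vasopressin receptor gene Avpr1a and changed by -1.52 ± 0.29, while Avpr1a stood at -1.36 ± 0.33 with an adjusted p (edgeR) of 0.053. Rbm46os spans all of Lrat, the retinol-esterifying enzyme gene of stellate cells, and both changed by -1.22 ± 0.19, with the antisense count at 102% of the Lrat count in either group. Lrat was the only stellate cell marker listed in this table. 1700112D23Rik, tail to tail with the glucose transporter gene Slc2a2, stood at -1.19 ± 0.34 with an adjusted p of 0.15 (edgeR).

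**Figure D3:**
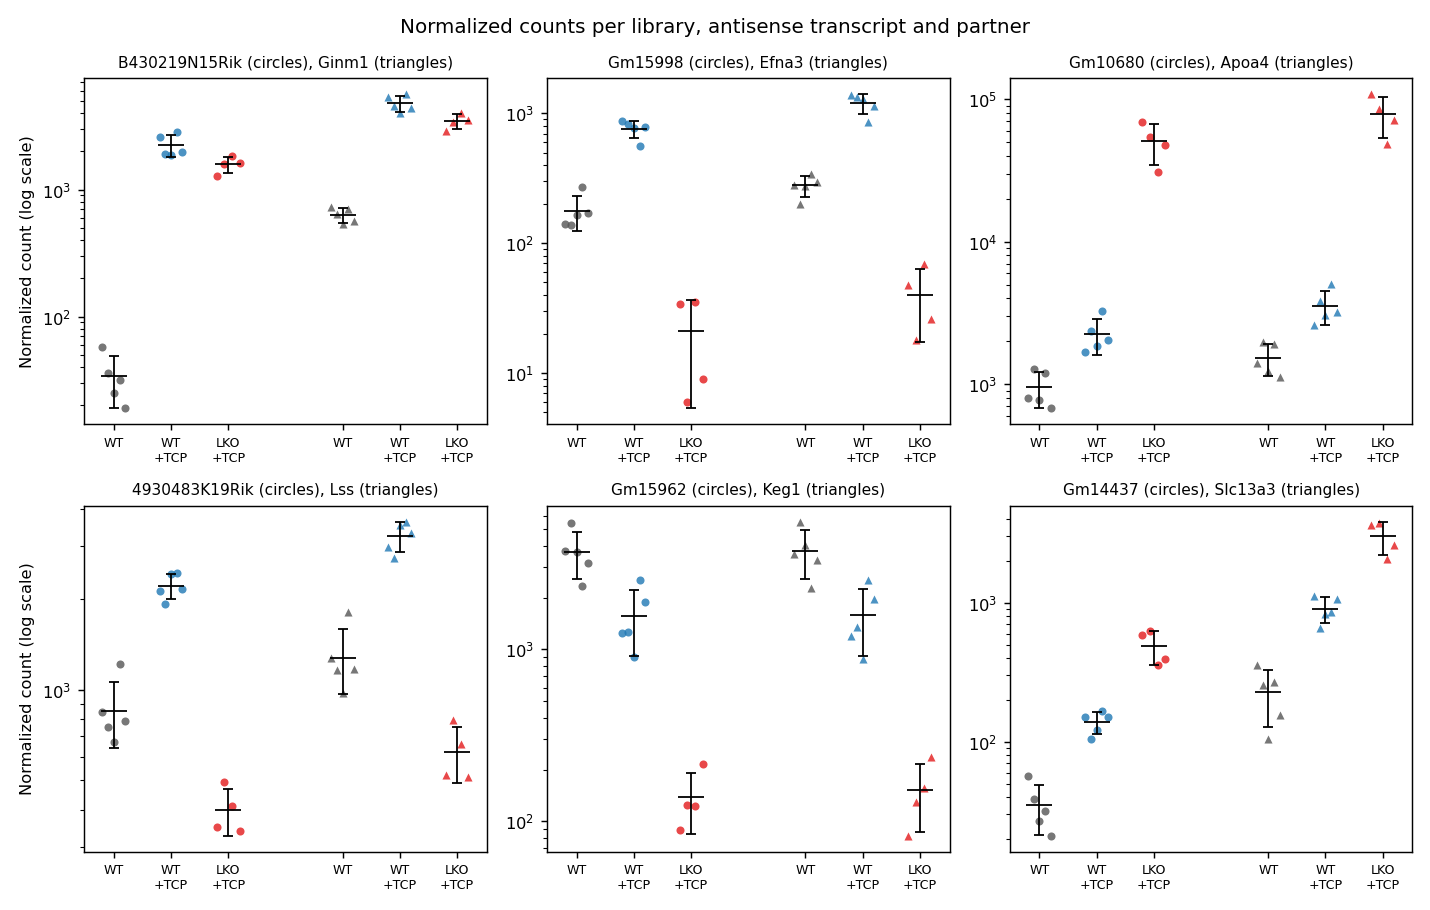
Normalized counts on a log scale in each library for 6 antisense transcripts (circles) and their partners (triangles) in untreated WT (WT), WT + TCPOBOP (WT +TCP) and Setd8-LKO + TCPOBOP (LKO +TCP); horizontal marks are means and bars 1 SD. The transcript and its partner shift in parallel in 5 panels, whereas B430219N15Rik starts at 19 to 58 in untreated WT, far below Ginm1, and comes closer to it in both treated groups.

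For the 40 transcripts in both tables the treated groups could be set against each other, because the untreated libraries have identical normalized counts for all 506 shared genes. This comparison, chosen after the data were seen, holds treatment constant and asks how the Setd8-LKO livers differ from WT livers that received TCPOBOP as well. It does not hold the run constant. Run A held 1 Setd8-LKO + TCPOBOP and 3 WT + TCPOBOP libraries, and run B held 3 and 2. Against untreated WT, 37 of the 40 moved the same way in both treated groups, 22 up and 15 down, and the groups share their controls. Between the treated groups 12 of 38 tested passed as changed, beside 32.2% of all shared genes tested (11.9% higher and 20.2% lower in Setd8-LKO). Of these 12, 5 were higher and 7 lower in Setd8-LKO + TCPOBOP, and 6 and 6 with size factors from the shared genes, which moved the median log2 difference by 0.24 (DESeq2) and 0.23 (TMM).

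Gm10680 showed the greatest excess in Setd8-LKO among the 12. It lies tail to tail with the apolipoprotein gene Apoa4 at chr9:46242621-46243529, minus strand, and had 804, 1275, 771, 1203 and 683 normalized counts in untreated WT, 1680, 2373, 1846, 3280 and 2050 in WT + TCPOBOP, and 69752, 54676, 31041 and 47906 in Setd8-LKO + TCPOBOP. Apoa4 had 1402, 1989, 1245, 1904 and 1122, then 2609, 3853, 3043, 5078 and 3212, then 108639, 84980, 48901 and 71878. The groups did not overlap in either gene, and the log2 difference between the treated groups was 4.50 ± 0.28 for Gm10680 and 4.47 ± 0.28 for Apoa4 (edgeR, adjusted p = 1.25e-05 for each). In WT the rise after TCPOBOP was 1.25 for Gm10680 and 1.22 for Apoa4, and with TMM factors from the listed genes it was -0.0030 and -0.032. The others higher in Setd8-LKO were Gm35823 in the axonemal dynein gene Dnah1 (3.31 ± 0.40), Gm16685 head to head with the cytokine gene Il7 (2.74 ± 0.31), Gm14437 in the dicarboxylate transporter gene Slc13a3 (1.82 ± 0.23) and Gm47547 in Dydc2 (1.56 ± 0.28). Gm47547 lost its call without any 1 of the Setd8-LKO + TCPOBOP replicates or without WT + TCPOBOP replicate 3 or 4, at 1.46 to 1.61. With run as a term Gm47547 also lost its call (1.49), and 11 of the 38 tested passed. Against untreated WT the rises of Gm14437 and Gm47547 after TCPOBOP in WT lost their calls with size factors from the listed genes (0.81 and 0.32 by DESeq2, 0.72 and 0.25 by TMM).

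Gm15998 moved in opposite directions in the treated groups. It lies inside the ephrin gene Efna3 at chr3:89315439-89318907, plus strand, and had 142, 139, 166, 269 and 171 normalized counts in untreated WT, 867, 822, 779, 559 and 785 in WT + TCPOBOP and 34, 6, 35 and 9 in Setd8-LKO + TCPOBOP. No group overlapped another, and between the treated groups Gm15998 was 36.0-fold higher in WT + TCPOBOP, a log2 difference of -5.17 ± 0.51 beside -4.89 ± 0.41 for Efna3. With size factors from the listed genes the rise of Gm15998 in WT + TCPOBOP was 0.94 by DESeq2 and 0.85 by TMM and lost its call, while the sign held. 4930483K19Rik and Lss did likewise. The transcript had 842, 750, 672, 1215 and 790 counts, then 2129, 1930, 2432, 2436 and 2156, then 349, 494, 411 and 339, a difference of -2.48 ± 0.18 between the treated groups beside -2.38 ± 0.19 for Lss. Against untreated WT the fall of this pair in Setd8-LKO, by 1.10 and 1.04 on the log2 scale, dropped below 2-fold without untreated WT replicate 4 (-0.94 and -0.88).

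The remaining transcripts lower in Setd8-LKO than in WT after TCPOBOP lay on the same side of untreated WT in both treated groups. AL590864.1 differed by -3.54 ± 0.44, Gm15962, over Keg1, by -3.51 ± 0.38 and BC028777 by -1.65 ± 0.21. Gm50323, tail to tail with the stearoyl-CoA desaturase gene Scd3, differed by -2.49 ± 0.49, and lost its call without any 1 of the Setd8-LKO + TCPOBOP replicates or without WT + TCPOBOP replicate 1, 2 or 3, at -2.80 to -2.20, and with size factors from the shared genes (-2.27 by DESeq2, -2.28 by TMM). Gm26911 differed by -2.79 ± 0.48 and lost its call without Setd8-LKO + TCPOBOP replicate 1 (-2.58). B430219N15Rik, by contrast, was close in the treated groups, with a difference of -0.51 ± 0.19 and an adjusted p of 1.0 (edgeR). Hectd2os stood 1.09 ± 0.31 higher in Setd8-LKO + TCPOBOP than in WT + TCPOBOP on the log2 scale, with an adjusted p of 0.447 (edgeR).

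Gm45774 and its partner Mt2, the metallothionein 2 gene, varied widely within each group, and in untreated WT and WT + TCPOBOP along with the run. Gm45774 had 8, 10, 878, 2786 and 338 normalized counts in untreated WT, 4597, 5106, 5254, 29 and 409 in WT + TCPOBOP and 589, 151, 311 and 361 in Setd8-LKO + TCPOBOP. Mt2 had 14, 16, 1538, 4728 and 576, then 7959, 8584, 8676, 52 and 711, then 1027, 232, 549 and 602. In every library the antisense count followed that of Mt2, at 58.5% in untreated WT and in Setd8-LKO + TCPOBOP and 59.2% in WT + TCPOBOP. The low untreated libraries, replicates 1 and 2, and the low WT + TCPOBOP libraries, replicates 4 and 5, are those of run B. Within run A the WT + TCPOBOP libraries, at 4597 to 5254 for Gm45774, lay above the untreated ones, at 338 to 2786. The Setd8-LKO + TCPOBOP library of that run had 361. Within run B the untreated libraries had 8 and 10, those of WT + TCPOBOP 29 and 409, and those of Setd8-LKO + TCPOBOP 589, 151 and 311. No comparison passed the test, and against untreated WT the Setd8-LKO difference of -1.19 turned to 3.09 with run as a term and to 0.19 without untreated WT replicate 4.

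**Figure D4:**
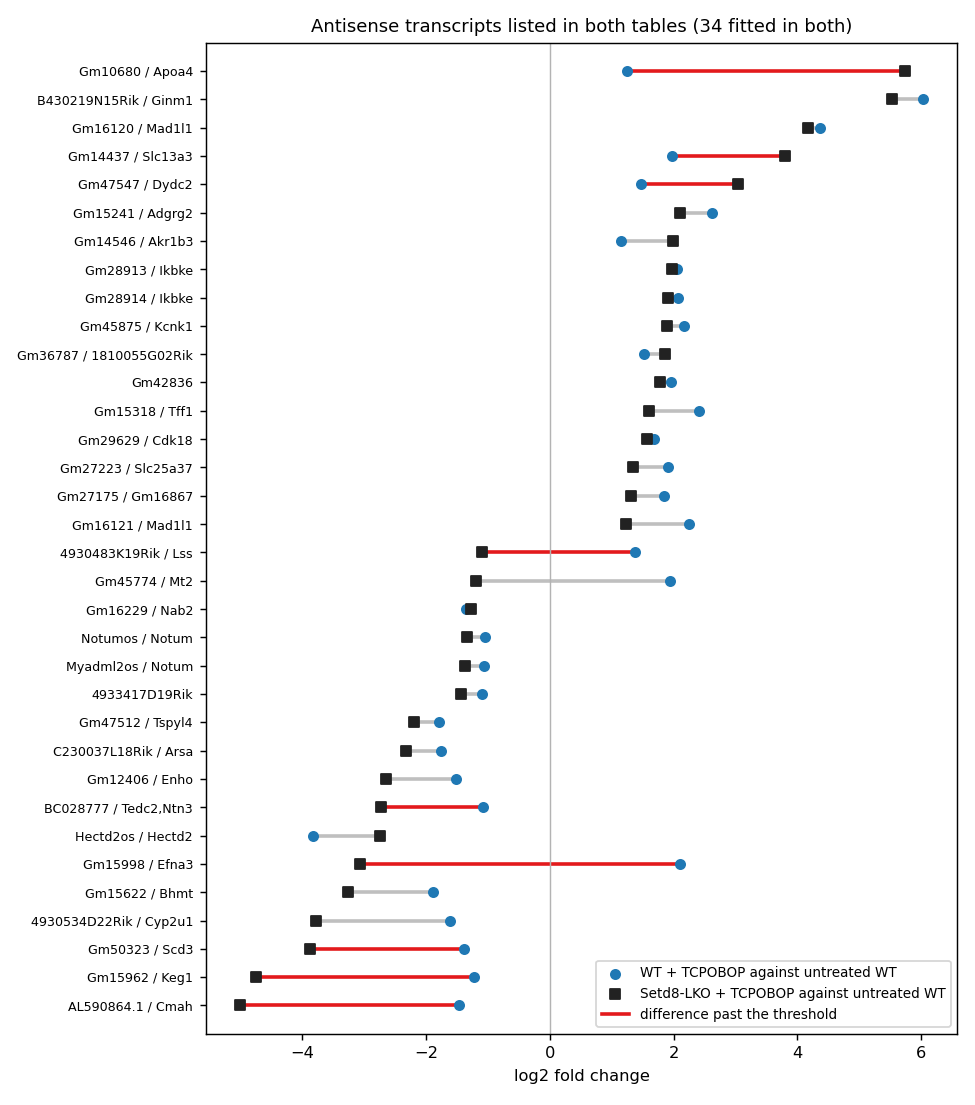
Fitted log2 fold changes against untreated WT of the 34 antisense transcripts that could be fitted in both tables, in WT + TCPOBOP (circles) and Setd8-LKO + TCPOBOP (squares), with partner names after the slash; red lines mark a difference between the treated groups past the threshold. Gm15998 and 4930483K19Rik lie on opposite sides of 0, and Gm10680 stands at 1.25 in WT + TCPOBOP and at 5.75 in Setd8-LKO + TCPOBOP.

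Chromatin peak lists, 1 per condition and without replicates, were available for untreated WT and Setd8-LKO + TCPOBOP livers and did not enter the choice of genes. Fewer antisense starts than starts of all listed genes had an H3K27ac or ATAC peak within 1000 bp. H3K27ac, a mark of active promoters and enhancers, was found at 120 of 323 antisense starts in the WT list (37.2%, beside 55.6% of all listed genes) and at 124 in the Setd8-LKO list (38.4%, beside 59.0%). Accessible regions by ATAC-seq were at 75 (23.2%, beside 38.1%) and 69 (21.4%, beside 32.3%). Most antisense genes do not start near a coding gene: 219 lay over 1000 bp from any coding start. Of these, 20.5% had H3K27ac in the WT list and 21.9% in the Setd8-LKO list, beside 23.9% and 26.3% of the 631 other listed genes that start as far from one. Of the 104 that start close to a coding gene, 72.1% and 73.1% had it.

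CTCF and Smc3, the insulator protein and a cohesin subunit that together shape chromatin loops, were at more antisense starts in the Setd8-LKO lists, and those lists are longer throughout. CTCF was at 14 of 323 starts in the WT list and 71 in the Setd8-LKO list (4.33% and 22.0%), where the lists hold 5838 and 20905 peaks and 4.64% and 35.5% of all listed genes had one. Smc3 was at 34 and 110 (10.5% and 34.1%), where the lists hold 13045 and 21615 peaks and the shares of all listed genes were 14.6% and 52.7%. Among starts over 1000 bp from any coding start the order was the other way: CTCF was at 4.57% of the 219 antisense starts and 1.90% of the 631 others in the WT list and at 11.9% and 8.87% in the Setd8-LKO list, and Smc3 at 8.68% and 6.66% and at 17.8% and 15.1%. H3K27ac was in both lists at 112 starts, in the WT list alone at 8 and in the Setd8-LKO list alone at 12. Gm16573, which fell, was among the 8, and Gm17189, which rose, among the 12. Over the 307 transcripts of the Setd8-LKO table, the Setd8-LKO list alone held H3K27ac at 5 starts of transcripts that rose and 5 of those that fell. The WT list alone held it at 2 and 6. Lamin A/C islands held 13 and 7 of the 323 starts and H4K20me3 islands 8 and 10, beside 6.13% and 4.47% and 3.57% and 4.21% of all listed genes. The starts of Acss2os, 9530034E10Rik and Gm26911 had no peak and lay in no island of any list.

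**Figure D5:**
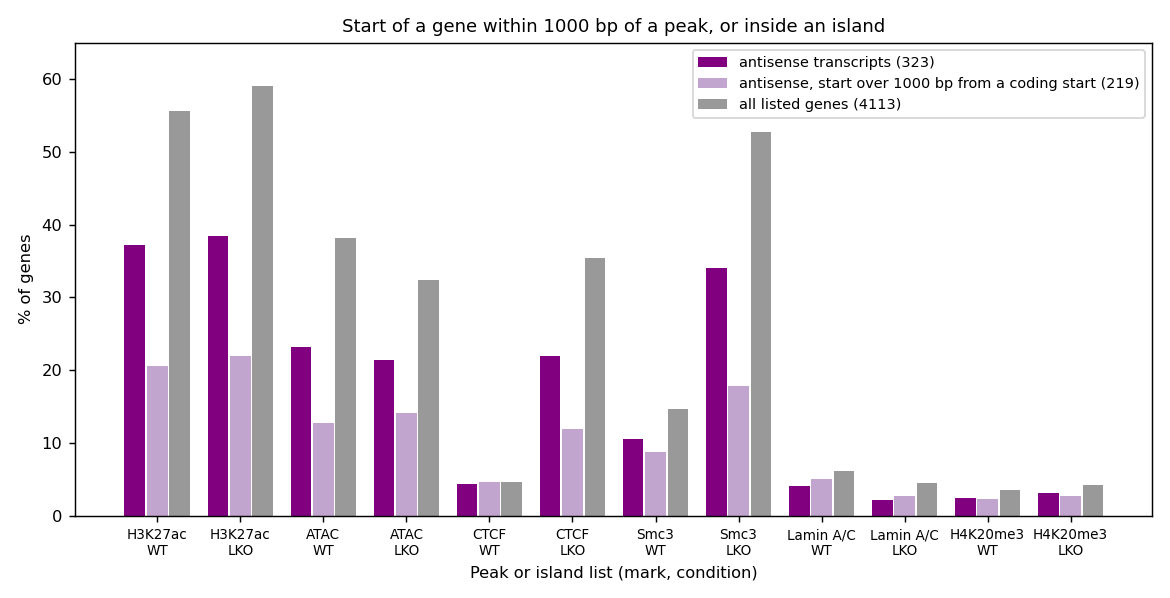
Percentage of genes whose start lies within 1000 bp of a peak (H3K27ac, ATAC, CTCF, Smc3) or inside an island (Lamin A/C, H4K20me3) in the untreated WT and Setd8-LKO + TCPOBOP lists, for the 323 antisense transcripts, the 219 of them that start over 1000 bp from a coding start, and all 4113 listed genes. Antisense bars stand below those of all listed genes for H3K27ac and ATAC, and CTCF and Smc3 bars are taller in the Setd8-LKO lists for every set.

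Genes that act on antisense RNA were sparse in the tables. For the nuclear RNA exosome and its adaptors, which degrade unstable noncoding RNA, 24 gene names were looked up. Of these, Exosc8 and Mphosph6 were listed and rose in Setd8-LKO + TCPOBOP, by 1.52 ± 0.18 and 1.03 ± 0.19. Exosc8 rose by 1.53 ± 0.17 in WT + TCPOBOP as well. Of 29 gene names for transcription termination and the Integrator complex, Wdr33 (1.35 ± 0.14) and Rprd1b (2.25 ± 0.22) were listed and rose in Setd8-LKO + TCPOBOP. Both sets hold an older and a newer name of some genes, so they cover fewer genes than names. Of 23 genes that edit or sense double-stranded RNA, the ADAR family gene Adarb2, whose protein binds double-stranded RNA (2.18 ± 0.16), and the sensors Oas1a (1.24 ± 0.28) and Oas1g (1.20 ± 0.35) rose and the adaptor gene Mavs fell by 1.05 ± 0.14. With DESeq2 size factors from the listed genes Rprd1b, Adarb2 and Mavs kept their calls, while Exosc8 (0.74), Mphosph6 (0.23), Wdr33 (0.51), Oas1a (0.48) and Oas1g (0.43) lost theirs in Setd8-LKO + TCPOBOP, and Exosc8 lost it in WT + TCPOBOP (0.36, and 0.28 by TMM). Kmt5a was the only one listed of 5 genes that write or read H4K20 methylation.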

How the data were processed

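Raw counts per gene were deposited by the authors for 14 liver RNA libraries, with normalized counts (a score here, the raw count times 1 factor per library, rounded by the authors). Reads had been filtered with PRINSEQ, aligned to mm10 with HISAT2 and processed with metaseqR, and the tables hold only genes past a combined FDR and a 2-fold change. The authors' p-value and FDR columns served only to give the number of genes they tested, 18512, and their fold changes were not used, nor were 114 other columns of per-library values. Peak lists, 1 per condition, carry fold enrichment as a ratio and a −log10 p computed by the authors with MACS2 2.2.7.1, and islands a score from SICER; reads had been trimmed with Trimmomatic 0.39, and deepTools 3.3.2 was also used. How replicates were pooled for the lists is not given in the sources used here.

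Members, gene lists and comparisons were chosen with earlier results of these data known. Raw counts were fitted with edgeR 4.0.16 (R 4.3.3; glmQLFit and glmQLFTest) on the authors' factors after filterByExpr with a minimum count of 10 at a library size of 40000000, and p-values were adjusted by Benjamini-Hochberg over 18512 genes. Genes were called changed at an adjusted p below 0.05 when they had moved at least 2-fold. Levels are normalized counts, and errors of fold changes are standard errors (SE). The third comparison used the genes in both tables, with the same adjustment. Exon models came from GENCODE M21 positions in the annotation used with mm10. Ratios of antisense to partner raw counts were tested with a pseudocount of 1 by an exact two-sided permutation test over libraries, and by limma 3.58.1. Starts were matched to peaks within 1000 bp. The scripts were tested on simulated counts. No libraries differed by less than sampling noise. Whether replicates are separate mice is taken from the labels. The text was to name every transcript with a listed partner, every one in both tables, and, of the rest, the most abundant and most changed; these were too many, so it prints a subset chosen after the values were seen, with all counts over the full set. Some genes and 1 marker list are not reported here. Alternatives were DESeq2 1.42.0, other size factors, adjustment over listed genes, no filter, a replicate block, run as a term, and leaving out each replicate, and, for pairs and peaks, other overlaps, windows and thresholds. Precision is limited by library number and, for low genes, by counts; the floor of 3 reads covers counting error only.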

Additional observations from a re-analysis of the deposited data

Results flagged for a closer look

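Among 159 groups of normalized counts of the antisense transcripts whose values are printed, 9 held a library far from the others, where chance alone puts about 1 in 20. In untreated WT, replicate 2 stood apart for Gm13449 (3749, others 5295 to 5857). Replicate 4 of that group stood apart for Gm15998 (269, others 139 to 171), Gm47079 (104, others 46 to 60) and Gm35823 (7, others 0 to 1). In Setd8-LKO + TCPOBOP, replicate 3 stood apart for Gm16121 (51, others 27) and AL590864.1 (43, others 15 to 18) and replicate 4 for Gm16794 (179, others 144 to 149). In WT + TCPOBOP, replicate 2 was high for Gm15622 (3514, others 880 to 1365) and replicate 4 low for Gm15998 (559, others 779 to 867). Gm16121 lost its call against untreated WT without Setd8-LKO + TCPOBOP replicate 3 (0.94 on the log2 scale).

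The difference between the treated groups was itself tested for the transcripts in both tables, and 12 passed (edgeR, adjusted over 18512 genes). As log2 Setd8-LKO + TCPOBOP minus WT + TCPOBOP, Gm10680 stood at 4.50, Gm35823 at 3.31, Gm16685 at 2.74, Gm14437 at 1.82 and Gm47547 at 1.56. On the other side, Gm15998 stood at -5.17, AL590864.1 at -3.54, Gm15962 at -3.51, Gm26911 at -2.79, Gm50323 at -2.49, 4930483K19Rik at -2.48 and BC028777 at -1.65. Gm45774 lay on opposite sides of untreated WT in the treated groups, with a difference of -3.12 that did not pass the test (adjusted p = 1.0).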

How the results depend on the processing

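Leaving out 1 library at a time gave 238 to 260 changed antisense transcripts in the Setd8-LKO table (269 with all libraries), 33 to 39 in the WT + TCPOBOP table (42) and 9 to 12 between the treated groups (12). The replicate numbers do not pair the libraries: same-numbered libraries had correlations of deviations of -0.215 to 0.102 in the Setd8-LKO table and -0.437 to 0.357 in the WT + TCPOBOP table. With a replicate block the counts were 217 (215 of them among the 269), 25 (all among the 42) and 7. Size factors from the listed genes gave 25 in the WT + TCPOBOP table by DESeq2 and 25 by TMM, and adjustment over listed genes only gave 19 between the treated groups. The share of pairs moving together in the Setd8-LKO table, 99.6%, was 100% over the 157 pairs that overlap by at least 50% of the shorter gene and 96.8% over the 31 that start within 1000 bp of each other, which hold the 1 opposite pair. limma gave 19 and 2 changed ratios where the exact permutation test gave 0 and 0 (42 and 7 at an unadjusted p of 0.05), with its smallest p too large for these to pass the adjustment. CTCF in the WT list was at 8 starts within 500 bp, against 14 within 1000 bp. Signs turned for Mt2 and Gm45774 in Setd8-LKO with the replicate block (0.99 and 0.87), with run as a term (3.40 and 3.09) and without untreated WT replicate 4 (0.17 and 0.19), for Apoa4 and Gm10680 after TCPOBOP in WT with TMM factors (-0.032 and -0.0030), and for Gm16120 between the treated groups with DESeq2 factors (0.029), TMM factors (0.016) and without WT + TCPOBOP replicate 4 (0.11). Over the left-out libraries Mt2 ranged from -1.58 to 0.17, Gm45774 from -1.55 to 0.19 and Gm16120 from -0.39 to 0.11. The cause was not tested. Of 3150 values of named genes under alternatives, 2903 kept direction and call, 175 lost the call, 61 gained it and 11 turned sign. Depth limits the transcripts under 10 counts, of which the Setd8-LKO table holds 18.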
